A study of Sus scrofa and Rattus norvegicus with 8 samples.

Results

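The genes described here are the Wnt ligands of pig, their frizzled (FZD) receptors and LRP co-receptors, the secreted inhibitors of the pathway, beta-catenin with its AXIN scaffold, and the TCF/LEF transcription factors. They were chosen by gene symbol alone, and 45 of the 25880 gene IDs of the pig table carried such a symbol (of 14844 IDs that carried the symbol of a nuclear gene). The set held 18 WNT ligands, 10 FZD receptors, 2 LRP co-receptors, 9 secreted inhibitors (SFRP, DKK and WIF1), 3 genes of the beta-catenin and AXIN class and 3 TCF/LEF factors. WNT4 and TCF7L1, which the symbol pattern would have taken, had no named ID in the pig table and so no value here.

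RNA sequencing of ribosomal-RNA-depleted total RNA was used to profile fat of 6 female Bama pigs, a Chinese miniature breed, each 2 years old and adult. One library was made per animal from the upper layer of the backfat, the outer of the subcutaneous fat layers over the back. All animals belonged to 1 group with no treatment named, so no contrast between conditions exists among them. The comparisons below are between genes within a library and between animals. The 2 libraries of pooled rat inguinal fat in the same series were not used, because the rat IDs were not paired with gene names.

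In canonical Wnt signalling, a lipid-modified WNT protein binds a frizzled receptor together with LRP5 or LRP6, the complex that marks beta-catenin for destruction is held off, and beta-catenin enters the nucleus to act with a TCF/LEF factor on target genes. SFRP proteins and WIF1 bind WNT ligands outside the cell, whereas DKK1 and its relatives bind the LRP co-receptors. In fat, the pathway is best known for holding back the conversion of precursor cells into adipocytes.

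Values are TPM, a measure of transcript abundance that is corrected for transcript length and sums to the same total in each library. Named nuclear genes held 24.1% to 26.3% of the TPM in replicates 1, 2, 3 and 6, but 3.34% in replicate 4 and 4.73% in replicate 5. Mitochondrially encoded protein genes took 10.8% to 21.2% in the first 4 of these and 0.209% and 0.298% in replicates 4 and 5. Because the rest of the table fills the total, TPM of every named gene were also divided by the sum over the 14844 named nuclear genes of the same library, so that these again sum to the TPM total. These rescaled TPM are used below unless TPM as deposited is stated, and results that rest on replicates 4 and 5 are given with and without them. The tissue label was checked against 6 defining genes (ADIPOQ, PLIN1, LEP, CIDEC, FABP4 and LPL), all of which were detected in all 6 libraries with a summed level of 17928 to 35962, whereas 4 measured keratinocyte genes summed to 1.48 to 5.13 and 4 measured skeletal muscle genes to 13.6 to 56.5.

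A minority of the Wnt genes was detected in every animal, and the undetected ones were almost all ligands. At over 0.1 TPM as deposited, 20 of the 45 members (44.4%) were detected in all 6 libraries, below the 67.2% of all named nuclear genes. The count was 3 of 18 WNT ligands (WNT16, WNT5A and WNT9A), 5 of 10 FZD receptors, 2 of 2 LRP co-receptors, 6 of 9 secreted inhibitors, 3 of 3 in the beta-catenin and AXIN class and 1 of 3 TCF/LEF factors. At least 1 library detected 37 members. The remaining 8 were WNT1, WNT3A, WNT7A, WNT7B, WNT8A, WNT8B, WNT10A and DKK4, of which WNT1, WNT3A and WNT7B were listed at 0 in all 6 libraries. Without replicates 4 and 5 the count of members detected in all libraries was 32. This was because 12 members passed 0.1 TPM in replicates 1, 2, 3 and 6 and missed it in replicate 4, replicate 5 or both. Named nuclear genes shifted too: 85.8% to 86.8% were detected per library in replicates 1, 2, 3 and 6, and 68.2% and 71.1% in replicates 4 and 5. Their share detected in replicates 1, 2, 3 and 6 together was not counted, so the 32 has no matching share.

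Secreted inhibitors were the most abundant class. They held 42.4% ± 4.98 (SD, n = 6) of the summed TPM of the 45 members, followed by FZD receptors with 19.2% ± 1.89 and the beta-catenin and AXIN class with 17.8% ± 7.31. LRP co-receptors held 11.6% ± 2.96, TCF/LEF factors 7.07% ± 4.88 and the 18 WNT ligands together 1.99% ± 0.355. The ligand share was between 1.55% and 2.42% in every library. The order of the middle classes differed between the libraries: the beta-catenin and AXIN class took 26.5% and 27.5% in replicates 4 and 5, above the FZD receptors (21.4% and 16.1%), but 11.0% to 15.1% in replicates 1, 2, 3 and 6, where FZD receptors took 18.4% to 20.8% and LRP co-receptors 10.3% to 15.6%. The plot of class shares shows where the animals were alike and where they parted: the inhibitor band took 37.2% to 50.2% everywhere, while the TCF/LEF band was 6.20% to 11.7% in replicates 1, 2, 3 and 6 and 1.69% and 0.955% in replicates 4 and 5.

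**Figure D1:**
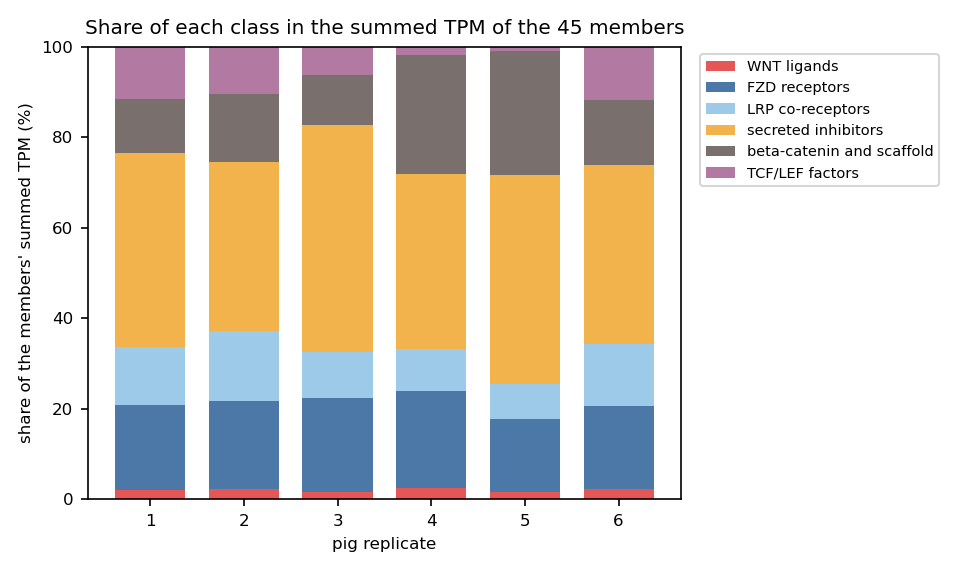
Stacked bars of the share (%) of each class in the summed TPM of the 45 members, 1 bar per pig replicate. Secreted inhibitors take 37.2% to 50.2% of every bar and WNT ligands 1.55% to 2.42%, and the TCF/LEF segment is smallest in replicates 4 and 5.

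The summed inhibitors exceeded the summed WNT ligands in 6 of 6 pigs. The inhibitor to ligand ratio was 20.2, 17.4, 32.2, 16.0, 29.8 and 18.3 in replicates 1 to 6, with a geometric mean of 21.5. The lowest and one of the highest values were those of replicates 4 and 5, and without them the geometric mean was 21.3. For the receptors, the FZD to ligand ratio was 8.87, 9.11, 13.3, 8.87, 10.4 and 8.50, with a geometric mean of 9.72 and a value above 1 in 6 of 6 pigs. Both ratios rested partly on single abundant genes: without the most abundant member of each class, the inhibitor ratio was 14.4 and the FZD ratio 2.93, each still above 1 in 6 of 6 pigs. Ratios within a library do not change when all its values are multiplied by 1 factor, as in the rescaling.

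Among the ligands, WNT16, WNT11 and WNT5A had the highest means over the 6 pigs, and none was abundant. WNT16 (ENSSSCG00000016617, chr18:25621802-25633730 of Sscrofa11.1, minus strand), a ligand best known from cortical bone, had rescaled TPM of 9.52, 6.93, 8.98, 5.35, 2.85 and 12.8 in replicates 1 to 6 (7.75 ± 3.49, SD, n = 6). Its mean lay above that of 36.7% of named nuclear genes. WNT11 (chr9:10413182-10435158), which acts mainly outside the beta-catenin route, was at 9.81, 13.3, 6.44, 2.90, 1.91 and 11.5 (7.63 ± 4.64). WNT5A (chr13:37344684-37367215), the best studied ligand of the beta-catenin-independent routes, was at 9.29, 9.16, 7.49, 3.31, 2.84 and 8.0 (6.68 ± 2.88). In each of these 3 genes replicates 4 and 5 were the lowest libraries, and over the other 4 the means were 9.57 ± 2.45, 10.2 ± 2.90 and 8.48 ± 0.883. On TPM as deposited they averaged 1.68 ± 1.3, 1.76 ± 1.39 and 1.47 ± 1.05.

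The order of the 3 leading ligands was not the same from pig to pig. WNT16 exceeded WNT11 in 4 of 6 pigs and WNT11 exceeded WNT5A in 3 of 6. In replicate 5, WNT5B (5.14) and WNT9A (3.40) were above all 3, and in replicate 4 WNT9A (4.28) and WNT6 (3.70) were above WNT11 and WNT5A. Below them, WNT10B, a ligand known for holding back adipocyte formation, averaged 3.49 ± 1.38, with a lowest library of 1.56 and a highest of 5.17. WNT9A averaged 3.44 ± 0.958, WNT2 2.58 ± 0.953, WNT5B 2.42 ± 1.70 and WNT9B 1.74 ± 0.473. WNT6, which had the largest coefficient of variation (CV, SD over mean) of any member with a mean of at least 1, was at 1.51, 0.606, 0.165, 3.70, 0.697 and 1.19. Its high library was replicate 4 and its low library replicate 3. The value in replicate 4 was 0.123 on TPM as deposited, near the 0.1 detection limit, and rescaling multiplied it by 29.9. On TPM as deposited the highest library was replicate 1, at 0.376. WNT2B (0.923 ± 0.422) and WNT3 (0.536 ± 0.375) were above 0 in all 6 libraries, and WNT8A, WNT10A, WNT8B and WNT7A were at 0 in 3 to 5 of the 6.

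The table held 4 pairs of WNT genes that lie within 100 kb of each other in the RefSeq annotation of Sscrofa11.1, a window chosen after the values were seen. In each pair the same gene was higher in 6 of 6 pigs. WNT10B (chr5:14997377-15013928, minus strand) overlaps WNT1 (chr5:15010607-15015007, plus strand) by 3322 bases, and WNT1 was listed at 0 in all 6 libraries. The library kit keeps strand, but the sources used here do not say whether the quantification used it. WNT9A (chr2:51102757-51128346) lies 25631 bases from WNT3A, which was also listed at 0 throughout. WNT9B lies 27848 bases from WNT3 on chromosome 12, and the means were 1.74 and 0.536. WNT6 lies 7844 bases from WNT10A on chromosome 15, and the means were 1.31 and 0.0658. The plot of neighbouring genes shows each animal's values.

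**Figure D2:**
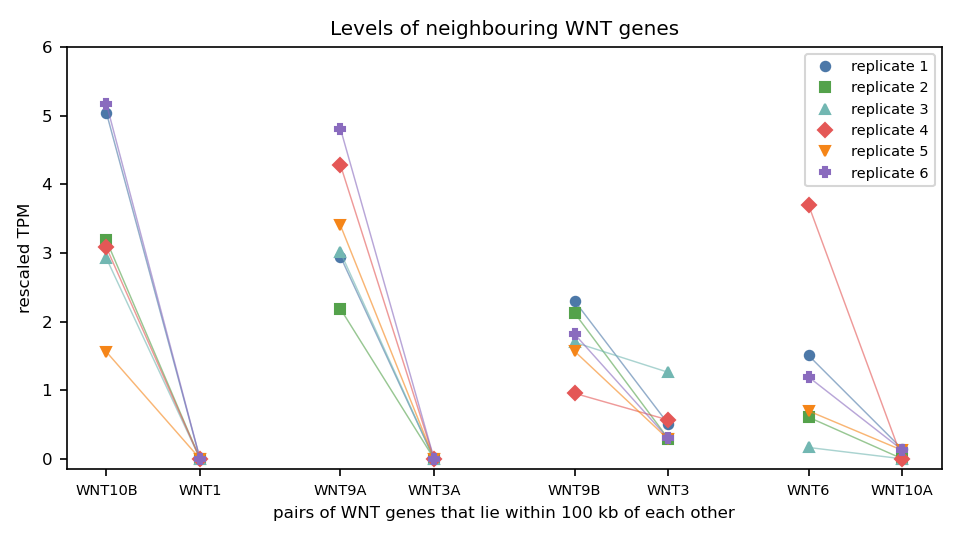
Rescaled TPM (linear axis) of the WNT genes that lie within 100 kb of each other, with 1 symbol and line per pig replicate. In every pair the left gene is above the right gene in 6 of 6 pigs, and WNT1 and WNT3A are at 0 throughout.

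FZD4 dominated the receptors. FZD4 (ENSSSCG00000014920, chr9:20714995-20721460, minus strand), which also serves as the receptor of the vascular ligand norrin, was at 337, 323, 407, 182, 153 and 317 rescaled TPM (287 ± 98.0), above 96.7% of named nuclear genes. It took 65.4% to 84.0% of the summed FZD level. Its lowest libraries were replicates 4 and 5, and the mean over the other 4 was 346 ± 41.4. FZD6 (chr4:33811159-33844556), a receptor known for cell polarity, was at 38.0, 35.4, 26.5, 33.8, 39.5 and 43.6 (36.1 ± 5.84). FZD1 (chr9:71346994-71356488, a gene of 1 exon) was at 19.3, 16.8, 13.5, 19.4, 17.2 and 19.4 (17.6 ± 2.32). Neither receptor was low in replicates 4 and 5: both libraries lay within the range of the other animals for FZD6, and for FZD1 replicate 4 was marginally the highest. The FZD6 to FZD1 ratio stayed between 1.74 and 2.29.

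The other FZD genes were lower. FZD7 averaged 14.2 ± 3.15, FZD8 7.59 ± 2.00, FZD5 5.77 ± 2.45 and FZD2 3.25 ± 1.48. FZD10 (2.34 ± 1.07), FZD3 (1.12 ± 0.425) and FZD9 (0.280 ± 0.225) were lowest, and all 10 FZD genes were above 0 in all 6 libraries. FZD4 exceeded FZD6 by 3.87 to 15.4 times, FZD6 exceeded FZD1, FZD7 exceeded FZD8 and FZD3 exceeded FZD9 in 6 of 6 pigs, while every other neighbouring pair of FZD genes changed order in at least 1 pig.

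Of the co-receptors, LRP6 (ENSSSCG00000000625, chr5:60149041-60318719) was the higher gene, at 244, 265, 184, 99.5, 94.9 and 258 rescaled TPM (191 ± 78.1). LRP5 (chr2:4533721-4653997), known for its effect on bone mass, was at 56.4, 61.7, 55.7, 16.7, 17.8 and 52.2 (43.4 ± 20.5). Replicates 4 and 5 lay below the others in both, and the means without them were 238 ± 37.1 and 56.5 ± 3.93. The LRP6 to LRP5 ratio was nevertheless 3.30 to 5.95 in all 6 pigs, with a geometric mean of 4.61.

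The inhibitors were led by 3 secreted frizzled-related proteins. SFRP5 (ENSSSCG00000010529, chr14:109120382-109125655), an adipocyte-secreted protein known to bind WNT5A, had the highest mean of all members: 352, 388, 665, 207, 189 and 514 rescaled TPM (386 ± 182), above 97.8% of named nuclear genes. SFRP1 (chr17:10436414-10489773) was at 331, 177, 264, 144, 184 and 248 (225 ± 68.8). SFRP4 (chr9:108404314-108414335) was at 225, 108, 162, 71.7, 251 and 77.2 (149 ± 76.2). Replicates 4 and 5 were the lowest for SFRP5 but not for the other two, and for SFRP4 replicate 4 was the lowest and replicate 5 the highest library. The SFRP5 to SFRP4 ratio accordingly ran from 0.756 in replicate 5 to 6.66 in replicate 6.

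The DKK genes were lower. DKK2 averaged 49.1 ± 13.1, between 30.6 and 65.8, and exceeded DKK3 (6.02 ± 2.23), a member whose protein differs from the other DKKs in its targets, by 4.52 to 11.4 times. SFRP2 averaged 17.2 ± 9.87 and was at 3.45 and 7.71 in replicates 4 and 5 against 17.4 to 28.3 in the others. DKK1, the classical LRP antagonist, averaged 0.265 ± 0.165. WIF1 averaged 0.411 ± 0.353 and was at 0 in replicate 4, and DKK4 was above 0 in replicate 3 only.

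CTNNB1 (ENSSSCG00000011274, chr13:25163550-25208314), which encodes beta-catenin, was among the steadiest members. It was at 243, 284, 233, 312, 385 and 291 rescaled TPM (291 ± 54.7), above 96.7% of named nuclear genes. Among members with a mean of at least 1, it was the only one with replicates 4 and 5 above the other 4 libraries on this scale. On TPM as deposited these 2 libraries were its lowest (10.4 and 18.2 against 60.6 to 76.7). AXIN1 (chr3:41344908-41393999), the scaffold on which beta-catenin is phosphorylated, was at 33.4, 23.7, 16.5, 11.5, 10.5 and 28.0 (20.6 ± 9.26). AXIN2 (chr12:12311293-12343207), a feedback inhibitor that is itself a target of the pathway, was at 4.56, 7.48, 7.17, 7.14, 2.67 and 8.92 (6.32 ± 2.28). Replicates 4 and 5 were the lowest libraries of AXIN1, while in AXIN2 replicate 4 lay among the others. AXIN1 exceeded AXIN2 in 6 of 6 pigs, with a geometric mean ratio of 3.20.

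TCF7L2 stood far above the other DNA-binding factors and differed most between animals among the abundant members. TCF7L2 (ENSSSCG00000010638, chr14:123343695-123547332, plus strand, with 17 exons in its longest RefSeq transcript) was at 258, 209, 139, 18.8, 12.4 and 256 rescaled TPM (149 ± 112). On TPM as deposited the values were 64.3, 50.4, 36.4, 0.629, 0.588 and 67.4. The mean over replicates 1, 2, 3 and 6 was 215 ± 55.5 and that over replicates 4 and 5 was 15.6, a ratio of 13.8. Of the 12130 named nuclear genes with a mean of at least 1 rescaled TPM, 53 (0.437%) had a larger ratio, a ranking made after the values were seen. The ratio of CTNNB1 to TCF7L2, which 1 factor per library cannot change, was 0.942, 1.36, 1.67 and 1.14 in replicates 1, 2, 3 and 6 and 16.5 and 31.0 in replicates 4 and 5. Most of this difference lay in TCF7L2, since CTNNB1 was 1.33 times as high in replicates 4 and 5 as in the others on rescaled TPM.

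TCF7, best known from T cells, was at 6.76, 5.63, 3.93, 1.51, 1.01 and 4.04 (3.81 ± 2.25). LEF1 was at 3.32, 3.87, 1.40, 0.781, 0.416 and 4.79 (2.43 ± 1.80). Both were lowest in replicates 4 and 5, and the ratios between the means of the 2 sets of libraries were 4.04 and 5.59. TCF7L2 exceeded TCF7 by 12.3 to 63.4 times.

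**Figure D3:**
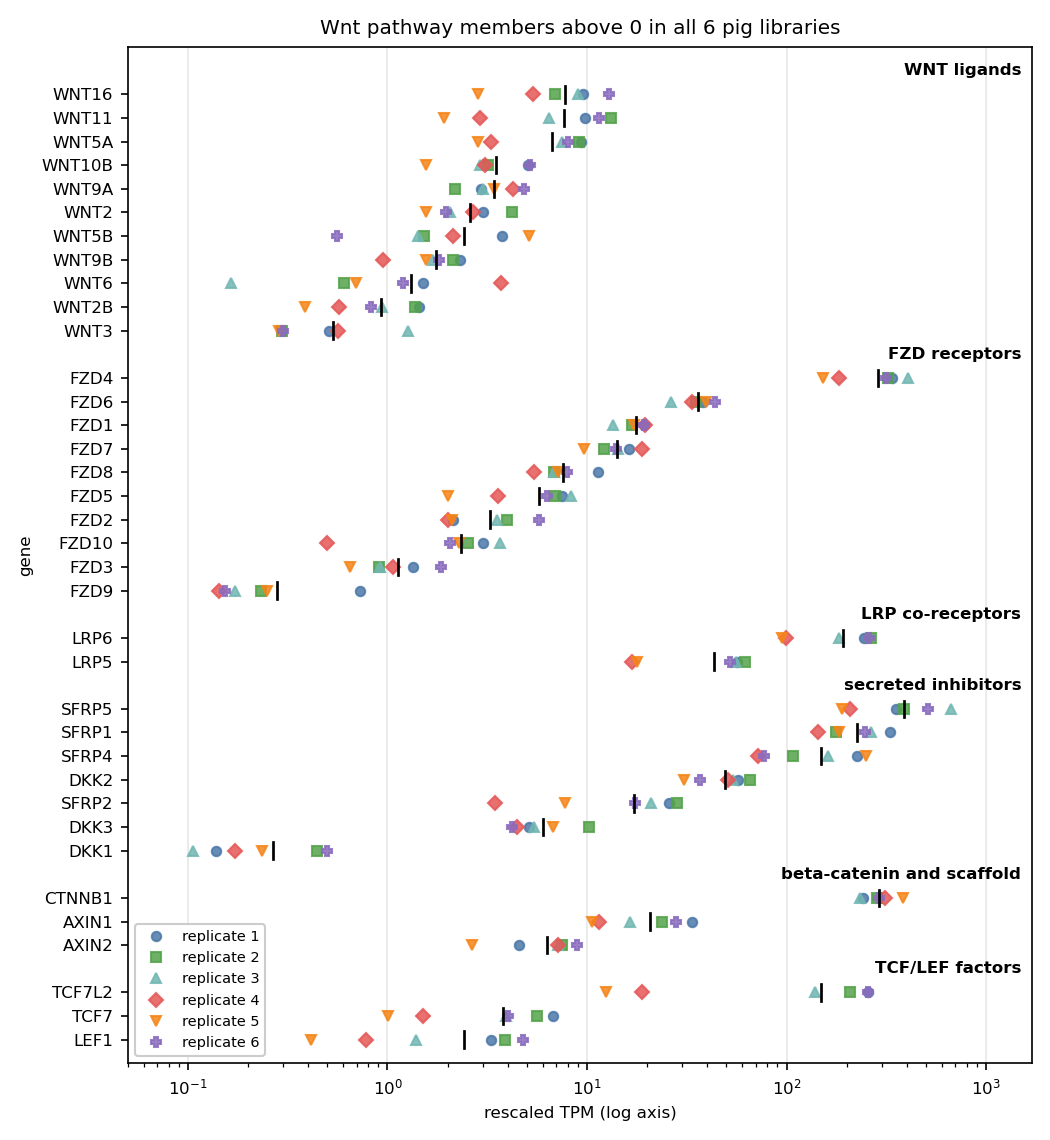
Rescaled TPM (log axis) of the 36 members above 0 in all 6 pig libraries, grouped by class, with 1 symbol per replicate and a black bar at the mean. SFRP5, CTNNB1 and FZD4 have the highest means, WNT ligands lie mostly below 10, and TCF7L2 shows replicates 4 and 5 far to the left of the other 4.

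Low values in replicates 4 and 5 were about as common among Wnt genes as among other named genes. Of the 32 members with a mean of at least 1, 15 (46.9%) had both libraries below the other 4, close to the 50.1% of all named nuclear genes passing the same limit. One member, CTNNB1, had both above, where 10.4% of named nuclear genes did. By class, the low members were 4 ligands, 3 FZD receptors, 2 LRP co-receptors, 2 inhibitors, 1 AXIN gene and 3 TCF/LEF factors. These counts depended on the scale. The members below numbered 30 on TPM as deposited, 8 after median-centring and 11 after quantile normalization. They numbered 14 when ribosomal protein genes were also left out of the sum. The share over all named nuclear genes was counted on rescaled TPM only, so the other counts describe these members alone. On TPM as deposited, the smaller part of the total held by named nuclear genes in replicates 4 and 5 lowers such genes as a whole. FZD4, LRP6, LRP5, SFRP5, SFRP2, AXIN1 and TCF7L2 were below on all 5 scales. CTNNB1 was above on 3 of them, overlapped on 1 and was below on TPM as deposited. The 5 scales are not separate checks, since TPM as deposited put 30 of the 32 members below. Leaving out ribosomal protein genes nearly repeated the rescaling. How many named nuclear genes were below on all 5 scales was not counted.

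Transcript length moved with this contrast. Among named nuclear genes, the median log2 difference of replicates 4 and 5 from the other 4 was -0.23 in the group of genes with the shortest transcripts, -0.52 in a middle group of like size and -0.72 in the group with the longest, and 36.4%, 51.6% and 63.7% of the genes lay below. The 15 low members had a median transcript length of 4580 bases and the other 17 members one of 3928. Summed cell type markers also differed. In 7 of the 10 marker lists the sum lay below in both replicates 4 and 5, beside the 50.1% of single named nuclear genes that did: the 3 measured Schwann cell genes summed to 7.75 and 5.77 in replicates 4 and 5 against 21.2 to 26.0, the 7 stromal and progenitor genes to 4810 and 4618 against 5819 to 9178, and the 4 endothelial genes to 605 and 736 against 1034 to 1322. The 6 macrophage genes summed to 380 and 237 against 501 to 596, the 6 smooth muscle genes to 557 and 624 against 701 to 1081, the 6 lymphoid genes to 17.4 and 18.7 against 24.3 to 39.4 and the 4 keratinocyte genes to 1.48 and 2.02 against 3.54 to 5.13. Sums follow their most abundant genes, and DCN alone averaged 6179 of the stromal mean of 6579. Among genes with a mean of at least 1, replicates 4 and 5 lay below in 5 of 6 stromal and 3 of 4 endothelial genes. They also did in 2 of 3 Schwann cell, 4 of 6 smooth muscle and 1 of 1 keratinocyte genes. In the macrophage and lymphoid lists the counts were 3 of 6 and 2 of 6. None of the measured genes of these lists was at 0 in all 6 libraries, and the adipocyte, skeletal muscle and glandular epithelium sums overlapped between the 2 sets of libraries. The part of transcript length and of cell makeup in the low Wnt genes was not tested. In bulk tissue, fewer cells of a type and less RNA per cell cannot be told apart.

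**Figure D4:**
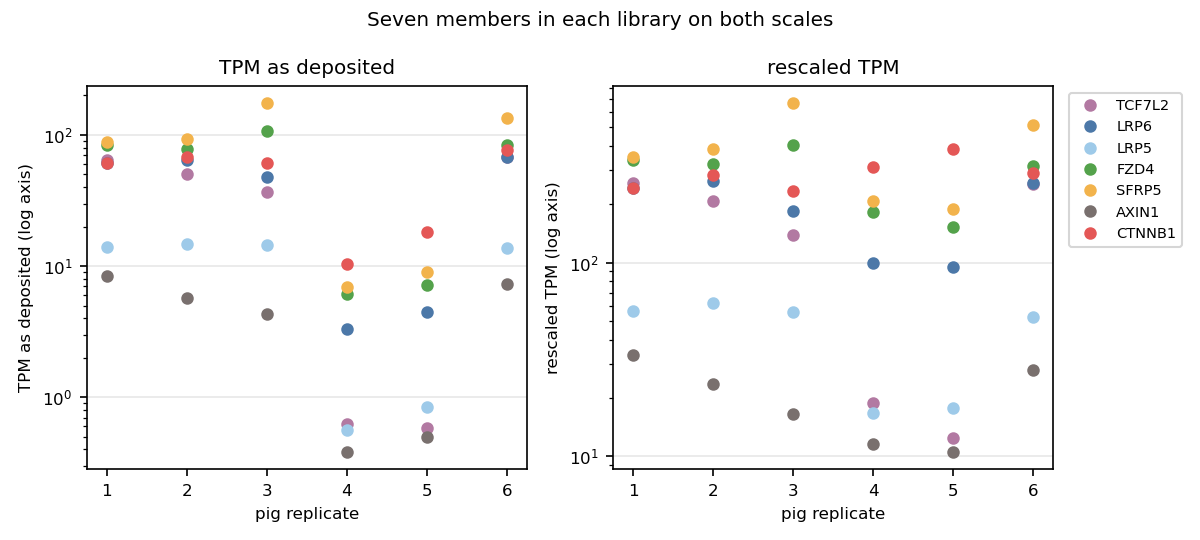
TPM as deposited (left) and rescaled TPM (right), both on log axes, of 7 members in each pig replicate. On the left each of the 7 has its own lowest values in replicates 4 and 5. On the right CTNNB1 has its highest values there, while each other member plotted keeps its lowest, TCF7L2 at 18.8 and 12.4.

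The spread of the Wnt genes between animals was set beside that of all named nuclear genes. The median CV of the 32 members was 0.417, against 0.327 over named nuclear genes with a mean of at least 1, and 23 of the 32 lay above that value. In replicates 1, 2, 3 and 6 alone the medians were 0.258 and 0.188. On TPM as deposited they were 0.740 and 0.699, where the composition of the libraries enters every gene. The smallest CVs were those of FZD1 (0.132), FZD6 (0.162) and CTNNB1 (0.188), and the largest were those of WNT6 (0.961), TCF7L2 (0.751) and LEF1 (0.743). These medians are a description, since the members were not drawn at random and are not matched to the other genes in level.

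A search for single libraries that stood apart by Dixon's ratio (the gap to the nearest library divided by the range, held to the 95% critical value for 6 values) found 0 of the 32 members on rescaled TPM, where 4.83% of named nuclear genes had one. On TPM as deposited it found 1 of 32, WNT5B, where 1.39% of the same genes had one. The ranking of the Wnt genes was shared between pigs: over the 42 members above 0 in at least 1 library, Spearman's rho between libraries was 0.920 to 0.980 (mean 0.951 over 15 pairs of libraries), beside 0.928 to 0.984 (mean 0.956) over 14249 named nuclear genes. These correlations are across genes of the same libraries and genes are not independent.

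Neighbouring members in the order of level within a class were compared by an exact two-sided sign-flip permutation test of their log2 ratio over the 6 pigs. Of 30 pairs, 12 had the same direction in 6 of 6 pigs, which gives an unadjusted exact p of 0.03125, the smallest that 6 pigs allow. After Benjamini-Hochberg adjustment over the 30 pairs the smallest exact permutation p was 0.078, so 0 pairs passed 0.05. The 12 pairs included LRP6 over LRP5, SFRP5 over SFRP1, CTNNB1 over AXIN1 and TCF7L2 over TCF7, and no pair of neighbouring WNT ligands. The order was read from the same values as the test, so it favours the direction given, and neighbours that missed the threshold are not shown to be equal.

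The rest of the pathway was followed through 8 lists with 82 distinct gene symbols, of which 73 had a value. Some symbols without a value, such as WISP1 and WISP2, are other names of listed genes (CCN4 and CCN5), so the lists hold fewer genes than symbols. Of the 62 with a mean of at least 1 rescaled TPM, 45 had replicates 4 and 5 below the other 4 and 2 had them above, beside the same 50.1% and 10.4% of all named nuclear genes. For ligand secretion, WLS, the carrier that brings WNT proteins to the cell surface, was at 22.1 to 28.0 in all 6 pigs (25.3 ± 2.69) and PORCN, the enzyme that lipid-modifies them, averaged 17.6 ± 6.75. NOTUM, which removes that lipid, averaged 0.349 ± 0.0428. TRABD2B, which came next after PORCN in level, averaged 17.6 ± 11.5. It was at 8.66 and 3.74 in replicates 4 and 5 against 14.6 to 34.4 in the others. WLS thus exceeded the mean of every WNT ligand.

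Among the R-spondins, secreted proteins that raise receptor levels at the cell surface, RSPO3 averaged 39.5 ± 24 and was at 9.67 and 12.3 in replicates 4 and 5 against 38.6 to 65.7 in the others. Its receptor LGR4 averaged 23.1 ± 2.43, with no separation of those libraries. ZNRF3, the ubiquitin ligase that clears FZD receptors, averaged 5.64 ± 2.05. Of the other receptors and binding proteins, the proteoglycan GPC3 (227 ± 30.4) and the WNT5A receptor RYK (126 ± 11.7) were the highest. Next in the same list came MCC (23.5 ± 13.3), which encodes an intracellular protein and not a receptor.

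Inhibitors outside the symbol pattern were also present. IGFBP4, which binds insulin-like growth factors and can block FZD and LRP6, averaged 231 ± 68.3, the membrane-bound inhibitor APCDD1 159 ± 29.5 and the DKK co-receptor KREMEN1 33.9 ± 16.0. In the cytoplasm, the kinases CSNK1A1 (251 ± 57.9) and GSK3B (111 ± 30.6), which phosphorylate beta-catenin, and the scaffold APC (98.5 ± 47.1) led a list of 13 genes. Of the 12 with a mean of at least 1, 9 had replicates 4 and 5 below the others, beside 50.1% of named nuclear genes. CSNK1A1 was the 1 gene of that list with both above, at 348 and 291 against 194 to 235. Among 11 measured nuclear partners, all with a mean of at least 1, 10 had replicates 4 and 5 below, beside 50.1% of named nuclear genes. The highest were EP300 (85.2 ± 53.0), CREBBP (69.7 ± 44.5) and BCL9L (67.4 ± 47.9). BCL9L, which links beta-catenin to its co-activators, was at 7.40 and 6.80 in replicates 4 and 5 against 80.4 to 113 in the others.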

How the data were processed

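Total RNA of backfat was depleted of ribosomal RNA and sequenced as stranded libraries, 1 for each of 6 pigs. TPM per gene were computed by the authors with kallisto (version 0.43.0, per the submitters' processing notes, which also name Sscrofa11.1) and deposited as 1 table. TPM keep no read numbers, so depth is unknown, no counting interval can be given, and precision comes only from the spread between pigs. Groups were taken from the labels.

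Symbols were matched by ID, which named 14857 of 25880 IDs (57.4%), 13 of them mitochondrially encoded. TPM were rescaled over the 14844 named nuclear IDs. Members, classes, gene lists and the rescaling were chosen with earlier results of these data known. The groups by transcript length (11295 genes with a RefSeq length), the 100 kb window, the counts and ratios of replicates 4 and 5 against the rest, and the within-library ratios of 2 genes were chosen after the values were seen. Values per library are given for the 3 highest members of each class and the 3 of largest and smallest CV among those with a mean of at least 1, with a library apart also named. List genes named are the 3 highest of each list, and NOTUM was added after its values were seen. Neighbours were compared by exact two-sided sign-flip permutation tests (64 patterns) of log2 ratios without a pseudocount, over members above 0 in all 6 libraries, adjusted by Benjamini-Hochberg. The same test was planned for the 2 class ratios; its p is not given, because the classes were set with results known. Leaving out libraries, other scales, filters, thresholds and a pseudocount of 0.1 were tried as alternatives. Python 3.11.15, numpy 2.4.6, pandas 2.3.3 and scipy 1.17.1 were used, and the tests were tested on simulated data. Coordinates are 1-based RefSeq positions on Sscrofa11.1, matched by symbol. No sequence is printed.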

Additional observations from a re-analysis of the deposited data

Results flagged for a closer look

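In 1 of the 64 sets of 6 values examined (32 members on 2 scales), a single library stood apart by Dixon's ratio. WNT5B, a ligand of the beta-catenin-independent routes, was at 0.932 TPM as deposited in replicate 1, against 0.0711 to 0.371 in the other 5 libraries. After rescaling, replicate 1 was at 3.73 and replicate 5 was higher, at 5.14, and no library stood apart. Chance flags about 1 in 20 such sets where the 6 values are independent and normally distributed. Among named nuclear genes, 1.39% were flagged on TPM as deposited and 4.83% on rescaled TPM. On TPM as deposited replicates 4 and 5 were low together in most members, and the ratio cannot mark libraries that lie together.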

How the results depend on the processing

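Of the 45 members, 20 were detected in all 6 libraries. The count was 8 at over 1 TPM, 36 at over 0.1 rescaled TPM, 32 without replicates 4 and 5, and 20 to 22 with 1 library left out. The share of all named nuclear genes, 67.2%, was counted only at over 0.1 TPM as deposited in all 6 libraries. The log2 inhibitor to ligand ratio of 4.43 was 3.84 from class medians, taken over members with a mean of at least 0.1 rescaled TPM. It was 3.85 without the top member of each class and 4.31 to 4.51 with 1 library left out. The log2 FZD to ligand ratio of 3.28 was 1.54, 1.55 and 3.19 to 3.32 in the same order. All of these ratios stayed above 0 in every pig used. The median CV of 0.417 was 0.740 on TPM as deposited, 0.501 after median-centring, 0.339 after quantile normalization, 0.258 without replicates 4 and 5 and 0.327 to 0.455 with 1 library left out, lowest without replicate 5. Members with replicates 4 and 5 below the other 4 numbered 15 as reported, 30 on TPM and 8 after median-centring, and those above numbered 1 as reported, 0 on TPM, 19 after median-centring and 6 after quantile normalization. These last alternatives were added after seeing the data, and the shares over all named nuclear genes were counted on rescaled TPM only. Median-centring used log2(TPM + 1), whose added 1 lifts low values. Between neighbours, 0 pairs passed the adjusted threshold under every alternative run, and with 5 pigs or fewer the smallest exact permutation p is 0.0625 or more, so leaving out pigs says nothing about stability. Means of 18 named members moved by over 1 SD in 17 cases on TPM as deposited and in 0 cases when ribosomal protein genes were left out. Leaving out libraries cannot move a mean by that much, so it was not a check of these means. No paired analysis was possible because the 6 pigs form 1 group and share replicate numbers only with the rat pools, which were not compared. Depth is unknown, so a value of 0 does not show that a gene is silent, and 6 animals of 1 breed, sex and age limit every statement to these pigs.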

Other observations

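Genes of the planar polarity branch, through which WNT and FZD proteins orient cells without beta-catenin, were all measured. All 11 had a mean of at least 1 rescaled TPM, as did 12130 of the 14844 named nuclear genes. Of the 11, 7 were detected in all 6 libraries, beside 67.2% of named nuclear genes. DAAM1, a formin that acts on the cytoskeleton, averaged 90.5 ± 27.3 (SD, n = 6), PRICKLE2 45.6 ± 12.5 and DAAM2 36.8 ± 10.2. Replicates 4 and 5 lay below the other 4 in 10 of the 11, beside 50.1% of named nuclear genes, DAAM1 being the exception, since its lowest library was replicate 3.

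Genes often cited as targets of the pathway, listed without regard to whether it raises or lowers them, did not move as 1 group between animals. Of 11 measured, 8 had a mean of at least 1, of which 5 had replicates 4 and 5 below the others and 1 had them above, beside 50.1% and 10.4% of named nuclear genes. PPARG, the master regulator of adipocyte formation, averaged 453 ± 190 and MYC 119 ± 67.9, and both were lowest in those libraries. CEBPA, which acts with PPARG in adipocytes, averaged 316 ± 186 and was at 562 and 539 in replicates 4 and 5 against 153 to 267 in the others.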
